A study of Mus musculus with 6 samples.

Results

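The 10 genes described here are Cd80, Cd86, Cd83, Cd274, Pdcd1lg2, Icosl, Fscn1, Zbtb46, Flt3 and Icam1, named from a list of co-stimulation and dendritic maturation genes and matched by symbol to the mouse GENCODE M21 annotation. They are 10 of the 55536 genes measured. RNA was sequenced from RAW264.7 cells, a virus-transformed macrophage line of the mouse whose cells turn into bone-resorbing osteoclasts under the cytokine RANKL. One group of 3 libraries came from cells given 50 ng/mL RANKL, and the other group of 3 from cells given 50 ng/mL RANKL and 4 µM etelcalcetide, a peptide calcimimetic given for overactive parathyroid glands, whose target is the calcium-sensing receptor. All 6 libraries thus share RANKL and a single cell line, and no library without RANKL was analysed here. By the sample labels, culture lasted 5 days in replicate 1, 6 in replicate 2 and 7 in replicate 3 of either group, while the series design names 5 days for all. Whether replicates were grown apart is not labelled, so p-values measure only how these samples vary, and that variation may be technical.

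T cells need a second signal beside antigen, and antigen-presenting cells give it through surface ligands of the B7 family. CD80 and CD86 bind the activating receptor CD28 and the inhibitory receptor CTLA4, ICOSL (encoded by Icosl) binds ICOS, and PD-L1 and PD-L2 (encoded by Cd274 and Pdcd1lg2) bind the inhibitory receptor PD1. When dendritic cells mature they display more of these ligands, along with CD83, the adhesion molecule ICAM1 and the actin-bundling protein fascin (Fscn1). ZBTB46 is a transcription factor of classical dendritic cells, and FLT3 is the receptor kinase through which FLT3 ligand drives their development.

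Levels are FPKM, reads per kilobase of exon, scaled to the gene-assigned reads of the library. Libraries held 13742913 to 16264432 gene-assigned reads, so that 1 read on a 1 kb transcript was worth 0.0615 to 0.0728 FPKM. Of 11120 genes high enough to test, 5894 changed with etelcalcetide, which is 53.0% (limma with Benjamini-Hochberg adjustment, threshold 0.05). Of the tested genes, 2896 rose and 2998 fell, or 26.0% and 27.0%. With library totals in place of trimmed-mean scaling the split was 3558 higher and 2272 lower, and the median log2 fold change of all tested genes went from -0.0104 to 0.0673. Of 11 macrophage markers 9 were tested, and 5 rose and 0 fell. Csf1r, the receptor of the growth factor CSF1, did not pass (log2 fold change 0.10, limma adjusted p = 0.111). It stood at 276 ± 12.3 and 313 ± 5.73 FPKM (SD, n = 3) in the RANKL and etelcalcetide groups. It passed with library totals (limma adjusted p = 0.0173) and without RANKL replicate 3 (limma adjusted p = 0.0372). Of 11 osteoclast markers 10 were tested, and 0 rose and 7 fell. The summed level of the osteoclast list was 418 to 567 FPKM with RANKL and 227 to 241 with etelcalcetide, and its part in the results below was not tested. No marker of 13 for lymphocytes or of 9 for granulocytes and mast cells was high enough to test. Cd3e, Ncr1 and Ly6g had 0 reads in all 6 libraries. Others on the lymphocyte list had some reads. Summed over the RANKL and the etelcalcetide libraries, Trac had 15 and 0, Cd4 32 and 5, and Cd79b 13 and 39. Among markers of dendritic cell subsets, Cd209a and Ly6d had 0 reads in all 6, and Xcr1, Clec9a and Siglech stayed at or below 0.0707 FPKM. Others on those lists were expressed, such as Itgax at 8.29 ± 1.59 and 8.0 ± 0.569 FPKM and Irf8 at 2.90 ± 0.223 and 3.84 ± 0.102 FPKM. Bst2, on the plasmacytoid list, rose from 43.4 ± 3.57 to 86.3 ± 4.06 FPKM (log2 fold change 0.91, limma adjusted p = 8.56e-06). The markers named here other than Csf1r and Adgre1 were chosen after their values were seen. In bulk RNA, a lower level from fewer cells of a type and one from less RNA per cell cannot be told apart.

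The stretches before the start sites of Icam1, Icosl and Fscn1 are shown because these are the 3 genes that rose with etelcalcetide whose RefSeq start, on build GRCm38.p6, lay within 100 bases of the gene start in GENCODE. Each is written 5′ to 3′ on the gene's strand, the plus strand in all 3, and stops where an annotated exon begins. Capitals mark matches to the motifs searched.
Icam1, chr9:21015690-21015939: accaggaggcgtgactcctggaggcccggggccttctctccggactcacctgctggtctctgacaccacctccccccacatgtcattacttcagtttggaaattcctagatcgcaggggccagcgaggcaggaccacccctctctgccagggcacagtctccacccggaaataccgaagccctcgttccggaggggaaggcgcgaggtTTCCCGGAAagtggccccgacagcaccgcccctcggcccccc
Icosl, chr10:78069118-78069301: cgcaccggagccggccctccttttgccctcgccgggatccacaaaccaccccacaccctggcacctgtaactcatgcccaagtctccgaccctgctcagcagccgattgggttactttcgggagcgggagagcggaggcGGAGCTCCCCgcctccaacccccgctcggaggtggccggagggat
Fscn1, chr5:142960105-142960342: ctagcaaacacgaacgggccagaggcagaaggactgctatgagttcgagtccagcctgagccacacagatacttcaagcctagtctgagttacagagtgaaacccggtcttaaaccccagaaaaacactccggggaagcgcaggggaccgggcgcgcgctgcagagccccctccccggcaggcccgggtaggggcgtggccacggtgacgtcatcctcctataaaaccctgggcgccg
The motifs, searched on both strands, were ISRE (the interferon-stimulated response element), GAS (TTCNNNGAA, the gamma-activated site), AP-1 (TGANTCA), PU.1 (GAGGAAG) and the kappa B consensus of NF-kB. The window ran from 250 bases before to 50 bases after the RefSeq start, and 8 of the 10 genes had one. Cd83 and Cd86 were not in the table. Icam1 held a GAS match, TTCCCGGAA, 42 to 34 bases before its start, and 8.30% of all 32851 promoters held that motif. The kappa B consensus matched in Icosl, 111 to 102 bases before the start, and in Pdcd1lg2, against 8.46% of all promoters. An AP-1 match stood in the windows of Cd80 and Zbtb46, against 7.81% of all promoters, but those RefSeq starts lie 3372 and 35038 bases inside the GENCODE genes and are not shown. No window of the 8 held an ISRE or PU.1 match, which 3.44% and 13.6% of all promoters held. The 9 letters GGAAATTCC, a variant kappa B sequence looked for after the Icam1 sequence was seen, lay 153 to 145 bases before the Icam1 start and in 0.317% of all promoters. These matches describe letters in a window and do not show binding.

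Among the 10 genes, 6 rose with etelcalcetide: Cd86, Icosl, Cd83, Icam1, Fscn1 and Zbtb46. Of all tested genes 26.0% rose. By the limma test 0 fell, against 27.0% of all tested genes. Before adjustment the limma p of Cd274, which was lower with etelcalcetide, was 0.0429. Cd80 and Cd274 did not pass, and Pdcd1lg2 and Flt3 had too few reads to test. The increase was at least 2-fold for 5 of the 6, as for 4.10% of all tested genes, and 2.92% of tested genes fell by as much. With a pseudocount of 1 FPKM in place of 0.1 it was at least 2-fold for 3 of the 6, since Cd86 and Zbtb46, both low, came out under 2-fold. In the 6 that rose, every etelcalcetide value lay above every RANKL value, which 36.7% of tested genes showed. None lay wholly lower with etelcalcetide, as 24.5% of tested genes did. Cd86 reached the minimum of 0.5 FPKM in only 1 of the 3 RANKL libraries, so that it was tested mainly through the libraries in which it was high. The other 7 tested genes met the minimum in each group. The plot of levels by library shows each value.

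**Figure D1:**
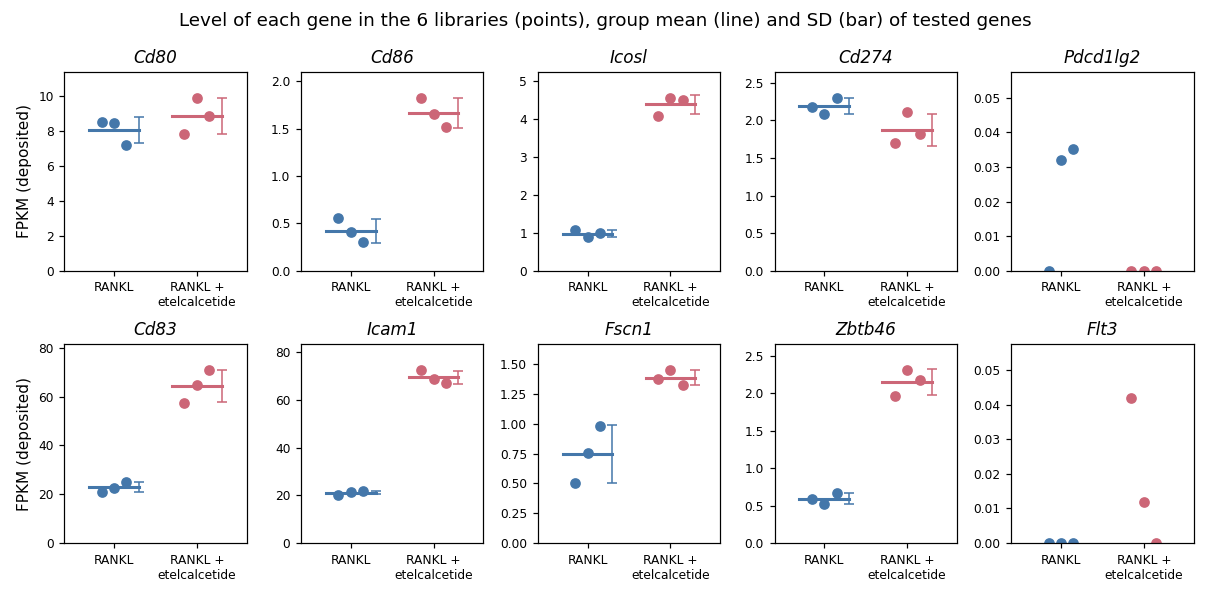
FPKM (y axis, from 0, a separate scale per gene) of the 10 genes in the 3 RANKL and the 3 RANKL plus etelcalcetide libraries. Points are libraries, and for the 8 tested genes lines are group means and bars are SD. Cd86, Icosl, Cd83, Icam1, Fscn1 and Zbtb46 have all treated points above all RANKL points, Cd80 and Cd274 overlap, and Pdcd1lg2 and Flt3 stay under 0.05 FPKM.

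Cd80 and Cd86, the ligands of CD28 and CTLA4, behaved unalike. Cd86 (ENSMUSG00000022901, chromosome 16, 36603869 to 36666081, minus strand) stood at 0.555, 0.413 and 0.301 FPKM in RANKL replicates 1 to 3 and at 1.82, 1.65 and 1.51 FPKM in etelcalcetide replicates 1 to 3. The lowest treated library was well above the highest RANKL library. Behind these levels were 71 reads in the RANKL libraries together and 276 in the treated ones. Adjusted for depth, the ratio of reads was 3.91 (95% exact interval 3.0 to 5.15, counting error only). The log2 fold change was 1.71 (SE 0.208, limma adjusted p = 1.91e-04). It fell to 0.87 with a pseudocount of 1 FPKM, which is above the RANKL levels of the gene, and the call held.

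Cd80 (ENSMUSG00000075122, chromosome 16, 38455561 to 38496335, plus strand) stood at 8.53, 8.45 and 7.17 FPKM with RANKL and at 7.81, 9.88 and 8.87 FPKM with etelcalcetide. The groups overlapped, with the lowest value in RANKL replicate 3 and the highest in etelcalcetide replicate 2. Its log2 fold change was 0.05 (95% interval -0.19 to 0.30, limma adjusted p = 0.702), and without RANKL replicate 3 or etelcalcetide replicate 2 it was -0.03 and -0.04. Per length, Cd80 transcripts were 15.4 to 23.8 times as abundant as Cd86 transcripts with RANKL alone, and 4.28 to 5.99 times with etelcalcetide. Cd80 thus remained the more abundant of the pair in each of the 6 libraries, by a smaller ratio in each treated library.

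Icosl, the ligand of ICOS (ENSMUSG00000000732, chromosome 10, 78069302 to 78083913, plus strand), had the largest fitted fold change among the 8 tested genes, though with a pseudocount of 1 FPKM that of Icam1 was larger (1.59 against 1.39 on the log2 scale). It stood at 1.06, 0.886 and 0.983 FPKM with RANKL and at 4.08, 4.55 and 4.50 FPKM with etelcalcetide. Its log2 fold change was 1.98 (SE 0.116, limma adjusted p = 2.90e-06), and 99.2% of all tested genes had a lower one. Within each group its libraries lay close together, with a coefficient of variation of 9.10% with RANKL and 5.86% with etelcalcetide, near the 12.1% and 5.72% that read counting alone gives.

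Cd274, which encodes PD-L1 (ENSMUSG00000016496, chromosome 19, 29367455 to 29388095, plus strand), did not pass. It stood at 2.17, 2.09 and 2.30 FPKM with RANKL and at 1.70, 2.11 and 1.82 FPKM with etelcalcetide. Only etelcalcetide replicate 2 reached into the RANKL range. The log2 fold change was -0.29 (95% interval -0.57 to -0.01, limma adjusted p = 0.0745). Without etelcalcetide replicate 2 the adjusted p was 0.0474 and the fold change -0.39, and over all single-library omissions the adjusted p ranged from 0.0474 to 0.222. An antisense gene, AC119228.1, covers 14.1% of its exon length and collected 19 reads with RANKL and 3 with etelcalcetide. Which strand was counted is not given in the sources used, and reads of that stretch cannot be assigned to either gene with certainty.

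Pdcd1lg2, which encodes PD-L2 and lies 22823 bases beyond Cd274 on the same strand (ENSMUSG00000016498, chromosome 19, 29410919 to 29471161), had 1 read each in RANKL replicates 2 and 3 and 0 in the other 4 libraries. A floor of 3 reads corresponds to 0.0941 to 0.111 FPKM per library, so a difference was not detectable at this depth.

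Read together by library, the make-up of the 5 B7 ligand transcripts shifted. Their summed level was 12.3, 11.9 and 10.8 FPKM with RANKL and 15.4, 18.2 and 16.7 FPKM with etelcalcetide. Icosl made up 7.46% to 9.11% of that sum with RANKL and 25% to 27% with etelcalcetide. Cd86 went from between 2.79% and 4.50% to between 9.05% and 11.8%. Cd80 held the largest share throughout, at 66.5% to 71.2% with RANKL and 50.6% to 54.3% with etelcalcetide. The Cd274 share was 17.6% to 21.3% with RANKL and 10.9% to 11.6% with etelcalcetide. A share falls when other members rise, so a lower share is not by itself a fall of the gene, and neither Cd80 nor Cd274 passed the test of its own level.

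**Figure D2:**
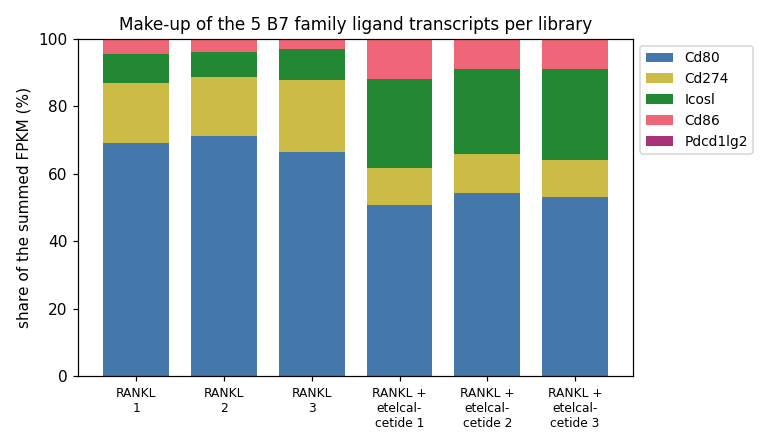
Share of the summed FPKM of 5 B7 family ligand transcripts (y axis, percent) in each of the 6 libraries (x axis). Cd80 is the largest part of each bar, and Icosl widens from at most 9.11% with RANKL to at least 25% with etelcalcetide.

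Cd83 and Icam1 were the most abundant of the 10 in either group. Cd83, a surface marker of mature dendritic cells (ENSMUSG00000015396, chromosome 13, 43784775 to 43803132, plus strand), stood at 20.9, 22.6 and 25.2 FPKM with RANKL and at 57.5, 64.7 and 70.9 FPKM with etelcalcetide. Every treated library was more than 2-fold above every RANKL library. The log2 fold change was 1.41 (SE 0.0882, limma adjusted p = 4.26e-06). Its spread within the groups, a coefficient of variation of 9.27% and 10.4%, was larger than the 3.34% and 1.99% that counting gives.

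Icam1, the ligand of the leukocyte integrins LFA1 and MAC1 (ENSMUSG00000037405, chromosome 9, 21015985 to 21028817, plus strand), stood at 20.3, 21.3 and 21.9 FPKM with RANKL and at 72.5, 68.8 and 67.0 FPKM with etelcalcetide. It had the narrowest interval of the 8, with a log2 fold change of 1.63 (95% interval 1.5 to 1.75, limma adjusted p = 1.46e-07). An antisense gene, Gm47079, covers 11.7% of its exon length and collected 6 reads with RANKL and 17 with etelcalcetide, against 4215 and 13753 for Icam1.

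Fscn1, the fascin that bundles actin in the projections of mature dendritic cells (ENSMUSG00000029581, chromosome 5, 142960343 to 142973185, plus strand), rose least and least securely. It stood at 0.50, 0.753 and 0.983 FPKM with RANKL and at 1.38, 1.45 and 1.33 FPKM with etelcalcetide. RANKL replicate 1 was at about the level of 23 reads, and the RANKL coefficient of variation of 32.4% exceeded the 17.2% from counting. The log2 fold change was 0.78 (SE 0.216, limma adjusted p = 0.0142), or 0.42 with a pseudocount of 1 FPKM. The call was lost without etelcalcetide replicate 2 (adjusted p = 0.0531, range over single-library omissions 0.00460 to 0.0531) and with no filter on low genes (adjusted p = 0.0701).

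Zbtb46 (ENSMUSG00000027583, chromosome 2, 181387762 to 181459426, minus strand) stood at 0.593, 0.518 and 0.671 FPKM with RANKL and at 1.96, 2.31 and 2.18 FPKM with etelcalcetide. All treated libraries were above all RANKL libraries, and the log2 fold change was 1.63 (SE 0.150, limma adjusted p = 3.89e-05), or 0.94 with a pseudocount of 1 FPKM. Its level with etelcalcetide overlapped the Cd274 range and was below that of Icosl.

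Flt3 (ENSMUSG00000042817, chromosome 5, 147330741 to 147400489, minus strand) had 0 reads in each RANKL library and 4, 1 and 0 reads in etelcalcetide replicates 1, 2 and 3. The floor of 3 reads corresponds to 0.0299 to 0.0353 FPKM per library, and 1 library, etelcalcetide replicate 1 at 0.0420 FPKM, was above it. With 5 reads in all, no change of Flt3 was tested.

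Ordered by mean level per length, the RANKL libraries had Cd83, Icam1, Cd80, Cd274, Icosl, Fscn1, Zbtb46 and Cd86. The ranges of Cd83 and Icam1 overlapped, as did those of Icosl and Fscn1, of Fscn1 and Zbtb46, and of Zbtb46 and Cd86. With etelcalcetide the order was Icam1, Cd83, Cd80, Icosl, Zbtb46, Cd274, Cd86 and Fscn1. The ranges of Icam1 and Cd83, of Zbtb46 and Cd274, and of Cd274 and Cd86 overlapped. By fold change, the 95% intervals of Cd86, Icam1 and Zbtb46 overlapped one another, and that of Icosl overlapped those 3 in turn. The interval of Cd83 overlapped those of Cd86, Icam1 and Zbtb46 but not that of Icosl. The interval of Fscn1 overlapped those of Cd83, Cd86 and Cd80, and the interval of Cd80 overlapped that of Cd274.

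**Figure D3:**
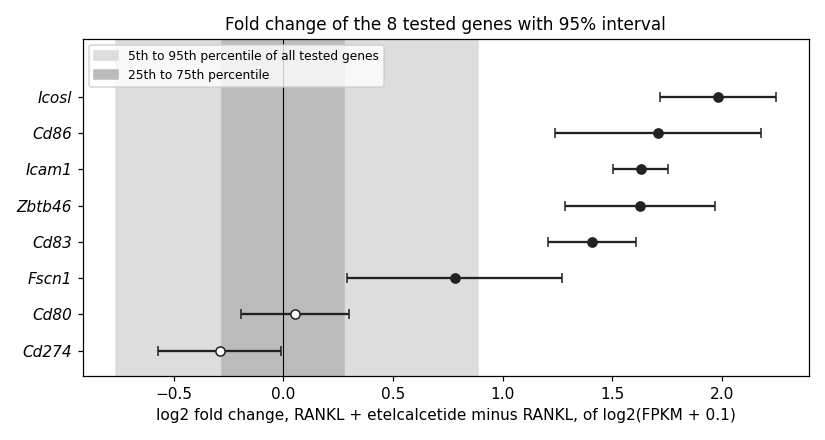
Log2 fold change (x axis, RANKL plus etelcalcetide minus RANKL, on the log2(FPKM + 0.1) scale) of the 8 tested genes, with 95% intervals not adjusted for the number of genes. Filled points passed the adjusted threshold of 0.05. Grey bands hold the middle 50% and 90% of all 11120 tested genes, and 5 of the 8 points lie right of both, with Fscn1 inside the wider band at 0.78.

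Other ligands and receptors of co-stimulation were read from lists chosen with earlier results of these data known. Of 7 further B7 and butyrophilin family genes, 2 were tested. Cd276, which encodes the checkpoint ligand B7-H3, rose from 5.72 ± 0.728 to 22.3 ± 0.324 FPKM (SD, n = 3), or by 1.87 on the log2 scale (limma adjusted p = 9.28e-07). Vsir, which encodes the inhibitory ligand VISTA, stood at 26.7 ± 2.98 and 30.1 ± 3.58 FPKM (log2 fold change 0.09, limma adjusted p = 0.488, and -0.0035 without RANKL replicate 1). Both were more abundant per length than Cd86 or Icosl in each group. Of 11 TNF family co-stimulatory genes, 6 were tested, and 4 rose and 1 fell, against 26.0% and 27.0% of all tested genes. Cd40, the receptor through which helper T cells license dendritic cells, had a log2 fold change of 2.72 and Tnfrsf9, the co-stimulatory receptor 4-1BB, one of 2.44. Tnfsf14, the ligand LIGHT, rose by 2.04 on the log2 scale from 12 reads with RANKL to 80 with etelcalcetide, and was tested only through the treated libraries in which it was high. With a minimum of 1 FPKM 3 of the list rose. Tnfsf8, the ligand of CD30, fell from 6.93 ± 0.850 to 0.0400 ± 0.0238 FPKM, on 1209 and 7 reads, and was tested only through the RANKL libraries. The median log2 fold change of the 6 was 1.28, against -0.0104 over all tested genes.

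Of 14 other genes of checkpoint and adhesion ligands and receptors, 10 were tested, and 6 rose and 2 fell (median 0.26). Of all tested genes 26.0% were higher and 27.0% lower. Lgals9, which encodes galectin 9, rose from 4.20 ± 0.186 to 21.6 ± 2.24 FPKM, and Nectin2, a ligand of TIGIT, from 5.54 ± 0.739 to 13.1 ± 0.672 FPKM. Havcr2, which encodes TIM3, fell from 18.9 ± 1.95 to 6.76 ± 1.31 FPKM. Cd200, an inhibitory ligand, had 31, 62 and 54 reads with RANKL and 0 in each treated library, and so was tested only through the RANKL libraries. Its place below the list median does not depend on the value fitted for it.

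ICAM1 acts through integrins, and most of the listed partners rose. Of 10 listed ICAM family, integrin and linker genes, 9 were tested, and 6 rose and 1 fell (median 0.74). The shares over all tested genes were 26.0% and 27.0%. Icam5, on 38 reads with RANKL and 155 with etelcalcetide, was tested only through the treated libraries in which it was high. It was named after its value was seen. With a minimum of 1 FPKM 5 of the list rose. Itgal, the alpha chain of LFA1, rose from 2.32 ± 0.125 to 26.5 ± 1.36 FPKM, or by 3.38 on the log2 scale with SE 0.0741 (limma adjusted p = 2.30e-08). Itgam, the alpha chain of MAC1, rose from 12.1 ± 0.508 to 21.9 ± 0.705 FPKM, and Itgb2, their common beta chain, had a log2 fold change of 0.65. Ezr, which encodes ezrin, a linker of membrane proteins to actin, rose by 0.74 on the log2 scale.

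Genes that control the traffic or turnover of these ligands and receptors mostly did not pass. Of 8 listed, 7 were tested, and 1 rose and 1 fell, against 26.0% and 27.0% of all tested genes (median 0.10), with 3 higher under library totals. Cmtm6, which protects PD-L1 from lysosomal degradation, rose from 19.3 ± 0.941 to 36.2 ± 1.31 FPKM (log2 fold change 0.82, limma adjusted p = 6.84e-06), while Cmtm4, a related protein, fell by 0.34 on the same scale. Lrba, which protects CTLA4 from degradation, went from 4.01 ± 0.418 FPKM with RANKL to 5.05 ± 0.123 FPKM with etelcalcetide without passing (limma adjusted p = 0.0559), and passed with library totals alone (0.0185), with limma-voom (0.0107) and without RANKL replicate 1 (0.0389).

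Transcription factors known to act on co-stimulatory genes mostly rose. Of 20 listed, 18 were tested, and 15 rose and 1 fell, against 26.0% and 27.0% of all tested genes, with a median log2 fold change of 0.54. Relb, the NF-kB subunit tied to dendritic cell maturation, rose from 8.39 ± 1.01 to 20.2 ± 0.339 FPKM, and Junb, an AP-1 subunit, from 69.3 ± 5.58 to 162 ± 5.02 FPKM. Stat2 and Irf9, which act in type I interferon signalling, had log2 fold changes of 1.08 and 0.90.

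Of 30 listed genes of dendritic cell maturation and migration, 21 were tested, and 15 rose and 4 fell (median 0.83), where 26.0% and 27.0% of all tested genes did. Ccl22 had a log2 fold change of 4.75, and Marcksl1, an actin regulator, rose from 61.2 ± 5.86 to 227 ± 3.97 FPKM. Of the genes that rose, Ccr7, Ccl5, Marcks, Cacnb3 and Mreg had 12, 14, 2, 37 and 6 reads with RANKL. They were tested only through the treated libraries in which they were high, and were named after their values were seen. Among those that fell, Cst7, a cystatin that inhibits cathepsins, went from 12.3 ± 0.725 to 0.312 ± 0.0168 FPKM, below the minimum for testing in the treated libraries, and Serpinb6b, a serine protease inhibitor, from 16.6 ± 3.29 to 0.870 ± 0.142 FPKM. Il15, named after its value was seen, fell by 0.36 on the log2 scale (limma adjusted p = 0.0493) while the FPKM values of the groups overlapped. Cd200 is also on that list, as are Cd40, Tnfrsf9, Tnfrsf4, Relb and Nfkb2 from the lists above. The identity list described next shares Irf4, Irf8, Batf3 and Itgax with lists above. Counts of these lists are thus not separate observations, and the shared genes are named whatever their values. Il12a and Il12b, the subunits of interleukin 12, had 0 reads in all 6 libraries and were named after their values were seen.

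Dendritic cell identity genes other than Zbtb46 and Flt3 were called at shares near those of all tested genes, 26.0% higher and 27.0% lower. Of 23 listed, 10 were tested, and 3 rose, 3 fell and 4 did not pass (median 0.15). With library totals, or without etelcalcetide replicate 1, 4 rose and 2 fell. Id2, an inhibitor of helix-loop-helix factors, and Cd24a, a surface glycoprotein, had log2 fold changes of 0.30 and 1.30, but Cd24a was under 0.5 FPKM in each RANKL library and was tested only through the treated ones. Cadm1, an adhesion molecule, fell from 19.2 ± 1.02 to 9.01 ± 0.646 FPKM, and Tcf4, a factor of plasmacytoid dendritic cells, fell by 0.57 on the log2 scale. Of 12 fascin, actin-bundling and other actin-related genes beside Fscn1, 9 were tested, and 2 rose and 3 fell (median 0.02, beside 26.0% and 27.0% of all tested genes). Under library totals 4 were higher. Those that fell, Actn1, Pls3 and Lcp1, encode actin-bundling proteins, as does Actn4, which did not pass. Those that rose, Diaph1 and Myo10, are among the other actin-related genes. Diaph1 had a log2 fold change of 0.51 (limma adjusted p = 9.30e-05). Myo10 only just passed, with 0.17 (limma adjusted p = 0.04996). Actn4 and Myo10 were named after their values were seen. Actn1, which encodes an alpha-actinin, fell from 26.1 ± 2.19 to 13.8 ± 0.453 FPKM. The paralogues Fscn2 and Fscn3 had 7 reads and 0 reads in all over the 6 libraries and were named after their values were seen.

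**Figure D4:**
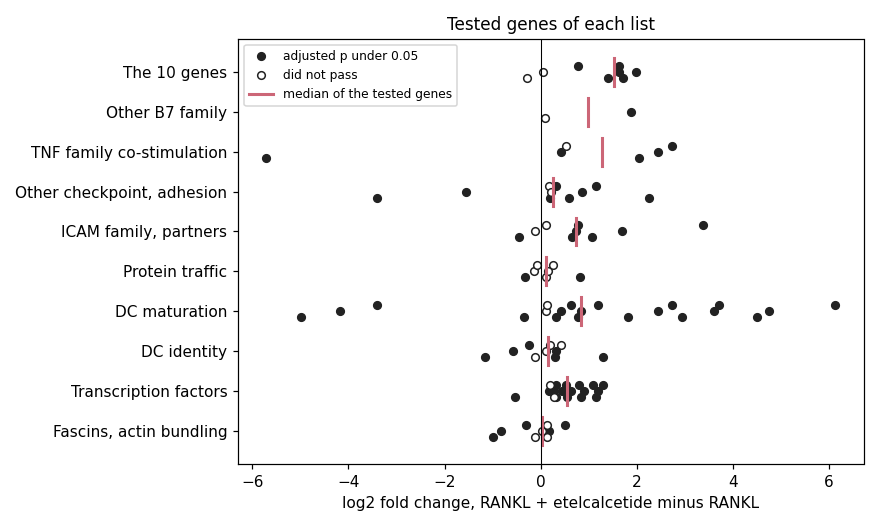
Log2 fold change (x axis, RANKL plus etelcalcetide minus RANKL) of each tested gene of the 10 genes and of 9 related lists (rows). Filled points passed the adjusted threshold, open points did not, and the red line is the median of the tested genes. The median is highest for the 10 genes, at 1.52 over the 8 tested, and lowest for the fascin and actin-related list, at 0.02.

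The receptors that these ligands bind on T cells were looked up as well. Cd28 had 97, 46 and 38 reads in RANKL replicates 1 to 3 and 4, 2 and 2 in etelcalcetide replicates 1 to 3. Adjusted for depth, the ratio of reads was 0.0444 (95% exact interval 0.0189 to 0.0894, counting error only). It missed the minimum level for the main test, and with no filter it was lower in the treated group (log2 fold change -2.49, limma adjusted p = 0.00379). Pdcd1, which encodes PD1, fell by 0.50 on the log2 scale (limma adjusted p = 0.0479) while the FPKM values of the groups overlapped. That call was lost without any one of 4 libraries, RANKL replicate 2 or 3 or etelcalcetide replicate 1 or 3 (adjusted p of 0.143, 0.136, 0.149 and 0.129), with library totals alone (0.0786), with limma-voom (0.0544) and with no filter (0.145). The level of Icos was 0.924 ± 0.158 FPKM with RANKL and 0.595 ± 0.277 FPKM with etelcalcetide (limma adjusted p = 0.0843, and 0.0335 with the replicate number as a block). Ctla4 had 1 read in all 6 libraries together.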

How the data were processed

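Total RNA of RAW264.7 cells was sequenced in 6 libraries, 3 per group, grouped by the sample titles. The authors deposited 1 table of FPKM values per library for 55536 Ensembl genes. DESeq2 1.22.1, featureCounts 1.6.0, HISAT2 2.1.0, Trimmomatic 0.38, FastQC, MultiQC and CASAVA are named in the submitters' processing notes, without their roles. GRCh38, a human build, stands in those notes, yet all 55536 IDs are in the mouse annotation GENCODE M21 (GRCm38), which gave symbols and coordinates. FPKM times merged exon length gave whole reads for 100% of values (tolerance 0.01 reads). Intervals and floors from reads cover counting error only.

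FPKM was divided by trimmed-mean factors computed from those reads (30% of M and 5% of A values trimmed). Then log2(FPKM + 0.1) was fitted with limma 3.58.1 in R 4.3.3 with a group term alone and a prior variance that follows the mean level. On that scale changes of low genes come out too small. Printed FPKM values are as deposited, unscaled. A gene entered the test with 0.5 FPKM and 10 reads in at least 3 libraries, or 2 where a library was left out. Genes with an adjusted p under 0.05 are called changed. The steps were tested on simulated reads. The alternatives were 2 other scalings, 2 filters, 2 pseudocounts, limma-voom on recovered reads, a replicate block and the omission of each library. Summaries used Python 3.11.15 with pandas 2.3.3 and scipy 1.17.1.

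The 10 genes, the lists and the tests were chosen with earlier results of these data known. Named genes are the 10, up to 4 tested genes of each list with the smallest adjusted p, the nearest protein-coding neighbours and the T cell receptors. Csf1r and Adgre1 were added from the marker lists. Other names were chosen after their values were seen, and the report says so beside them. Promoter sequences are from RefSeq, build GRCm38.p6. Proteins were not compared here.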

Additional observations from a re-analysis of the deposited data

How the results depend on the processing

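Of 112 values of the 8 tested genes under single changes of processing, 107 kept their direction and their side of the threshold. The exceptions were Cd80 (log2 fold change -0.03 without RANKL replicate 3 and -0.0441 without etelcalcetide replicate 2, both far from the threshold), Cd274 (-0.39, adjusted p = 0.0474 without etelcalcetide replicate 2) and Fscn1 (0.78, adjusted p = 0.0701 with no filter, and 0.73, adjusted p = 0.0531 without etelcalcetide replicate 2). With each library left out in turn, 5 to 6 of the 10 genes rose and 0 to 1 fell, the log2 fold change of Cd80 ran from -0.0441 to 0.144, that of Cd274 from -0.39 to -0.22 and that of Fscn1 from 0.55 to 0.98. With a pseudocount of 1 FPKM 3 of the 10, not 5, rose at least 2-fold. Over all tested genes, 2361 to 3091 were higher when libraries were left out.

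Counts in the small lists moved as follows. The TNF family list had 2 members lower with no filter. The other checkpoint list had 1 lower with a minimum of 1 FPKM. That list had 4 higher with no filter, and 4 to 6 higher when libraries were left out. The transcription factor list had 12 to 15 higher when libraries were left out. The maturation list had 3 lower with library totals, no filter, a minimum of 1 FPKM, a pseudocount of 0.01 FPKM or limma-voom. When libraries were left out that list had 3 to 4 lower. The traffic list had 3 higher with library totals and 2 with limma-voom, and 1 to 2 when libraries were left out. The ICAM list had 1 to 2 lower when libraries were left out, 2 without RANKL replicate 1. The fascin and actin-related list had 4 higher with library totals. It had 1 higher, Diaph1 and not Myo10, with upper-quartile factors, no filter, a pseudocount of 0.01 FPKM or the replicate block. When libraries were left out it had 1 to 2 higher. The cause was not tested. With the replicate number as a block, 5709 genes changed and the calls of all 8 tested genes were the same. Deviations of same-numbered libraries correlated at 0.0744, -0.0188 and -0.0299 across genes, so the numbers were not treated as pairs. In the 250 bases before the start alone, shares of all promoters were 2.98% for ISRE, 7.02% for GAS, 6.75% for AP-1, 10.6% for PU.1 and 7.25% for kappa B, lower because the window is shorter. Among 43 other tested genes, 572 of 598 values were unchanged in direction and side. These were up to 4 genes of each list by adjusted p, the changed neighbours, Pdcd1, Icos, Csf1r, Adgre1 and Acp5. They include Acp5 and Itch, not named elsewhere here, and leave out the genes named after their values were seen, such as Myo10. Vsir was -0.0035 without RANKL replicate 1 and at most 0.197 when other libraries were left out. Depth limits Pdcd1lg2 and Flt3 most.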

Other observations

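The nearest protein-coding genes on each side of the 10 genes were read as a view of their surroundings. They comprised 18 genes besides the 10, of which 11 were tested, and 3 rose, 1 fell and 7 did not pass, where 26.0% of all tested genes rose and 27.0% fell. The gene next to Cd86 on its lower-coordinate side, 41727 bases away, is Casr, which encodes the calcium-sensing receptor itself, and it had 0 reads in all 6 libraries. Mrpl4, a mitochondrial ribosomal protein gene 7145 bases before Icam1, rose from 28.1 ± 2.18 to 38.7 ± 1.37 FPKM (SD, n = 3; log2 fold change 0.38, limma adjusted p = 0.00106), against 1.63 for Icam1. Icam4, 555 bases beyond Icam1, had 0 reads in all 6 libraries. Actb, the beta-actin gene next to Fscn1, had a log2 fold change of 0.26 (limma adjusted p = 0.00855, and 0.120 with no filter). Zgpat, next to Zbtb46, had one of 0.33 (limma adjusted p = 0.0212), lost without RANKL replicate 2 or etelcalcetide replicate 1 or 2 (adjusted p of 0.0627, 0.0747 and 0.0864). Pan3, next to Flt3, fell by 0.26 on the log2 scale (limma adjusted p = 0.0317), and that call was lost without RANKL replicate 1 or 2 or etelcalcetide replicate 1 or 2 (adjusted p of 0.0807, 0.0743, 0.0956 and 0.108), with library totals (0.116), with no filter (0.0595) and with the replicate block (0.0543).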
